A study of Mus musculus with 6 samples.

Results

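The genes described here are 8 mouse genes of 2 families, the Ly6 antigens Ly6a, Ly6c1, Ly6c2 and Ly6e and the Ifi200 family members Ifi203, Ifi204, Ifi207 and Mndal. They were picked by name, with their rise in the bulk comparison below already known, out of 27179 genes in the bulk table and 30750 genes in the single-cell tables. Their bulk values are therefore given as a description, and whether they pass the thresholds below is not read as evidence.

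Ly6 proteins are small, cysteine-rich proteins that are held on the outer face of the plasma membrane by a glycosylphosphatidylinositol anchor. Ly6a is also known as Sca-1, a marker used to sort stem and progenitor cells and, in the heart, found on endothelial and interstitial cells. Proteins of the Ifi200 family carry a DNA-binding HIN domain, most of them beside a pyrin domain, and include sensors of DNA in the nucleus and the cytosol. Many genes of both families are induced by interferons, which act through the receptors Ifnar and Ifngr, the kinases of the Jak family and transcription factors such as Stat2 and Irf9.

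The study asked how cardiac fibroblasts of different age affect immature cardiomyocytes (imCMs). Neonatal cardiomyocytes of C57BL/6 mice (C57BL/6J per the study's methods) were co-cultured with neonatal cardiac fibroblasts (imCM-NF, 2 libraries) or adult cardiac fibroblasts (imCM-AF, 2 libraries), and the cardiomyocyte fraction was sequenced in bulk after the cell types had been separated (by centrifugation per the labels, by sorting of dye-stained cells per the study's methods). No group without fibroblasts was sequenced in bulk, and per the study's methods the fibroblasts were passaged and more adult than neonatal fibroblasts were plated per imCM. Cells were also sequenced singly in nanowells, in 1 library labelled cardiomyocytes and 1 library labelled fibroblasts. The deposited report gives each well a Type name. AF and NF are read here with the study's abbreviations, for adult and neonatal fibroblasts. NCM is taken here to mean neonatal cardiomyocytes, because these wells are in the library labelled cardiomyocytes. The study itself uses NCM for non-cardiomyocytes. The cardiomyocytes library held the Types AFNCM1 to AFNCM3, NFNCM1 to NFNCM3 and NCM0_1 and NCM0_2, and the fibroblasts library held AF1, AF2, NF1, NF2, AF0_1, AF0_2, NF0_1 and NF0_2. What the 0 and the other numbers stand for is not given in the sources used here, so Types were not treated as replicates.

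The bulk libraries held between 9278909 and 12088577 counts, and libraries of a group differed by more than counting noise (chi-square per degree of freedom 8.60 in imCM-NF and 8.42 in imCM-AF). Nothing in the labels says whether the 2 libraries of a group came from separate cultures, so their spread may be technical. In the single-cell data 2247 of 2462 wells were kept, 1296 in the cardiomyocytes library with a median of 18238 unique molecular identifiers (UMIs) and 951 in the fibroblasts library with a median of 27809. The libraries share 259 well barcodes. Differences between them cannot be told apart from the library. In wells marked as negative controls no UMI of any member was found, and in those marked as positive controls 1 and 2 UMIs of Ly6e were found.

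The Ly6 members lie together on chromosome 15 and the Ifi200 members together on chromosome 1 (GRCm38, the assembly of mm10; positions from RefSeq). Ly6e spans 74955025 to 74959904, Ly6a 74994877 to 74998031, Ly6c1 75044018 to 75048920 and Ly6c2 75108161 to 75112066. Ifi207 spans 173723424 to 173741831, Ifi204 173747293 to 173767069, Mndal 173857215 to 173880382 and Ifi203 173920400 to 173942866. Genes of such clusters resemble each other, which matters because the authors counted uniquely placed reads. Of all 35-base words in its transcripts, Ly6c1 shared 43.7% with other genes, most of them with Ly6c2. The share was 30.5% for Ifi204, 29.4% for Ly6a, 26.4% for Mndal, 21.5% for Ly6c2, 19.5% for Ifi203 and 12.1% for Ifi207, and only 0.271% for Ly6e. Reads from shared stretches could be lost or given to a paralog, so by this measure counts of Ly6c1 are the least certain and those of Ly6e the most certain. In the GENCODE annotation the span of Mndal also overlaps Ifi203 on the same strand, with 37 shared exon bases.

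Promoters (RefSeq, GRCm38.p6, 250 bases before to 50 after each start) were at hand for 5 of the 8 members, 9 promoters in all. They were searched on both strands for the core of the interferon-stimulated response element, which is GAAA followed by any 2 bases and GAAA and is bound by a complex that holds Stat2 and Irf9, and for the core of the gamma-activated site, TTCNNNGAA, which serves many responses to interferon gamma. The former was found in 4 of the 9 promoters and the latter in 0, against 3.443% and 8.298% of all 32851 promoters in the table. The matches lay in Ifi203, Ifi207 and both promoters of Mndal, with their first base 35, 41, 36 and 54 bases before the start, respectively. The windows from 90 bases before to 30 bases after the start are shown because they carry these matches, in capitals. All are on the minus strand, at chr1:173942463-173942582 for Ifi203, chr1:173880158-173880277 for the upstream start of Mndal, chr1:173741780-173741899 for Ifi207 and chr1:173913017-173913136 for the relative Ifi211.
Ifi203: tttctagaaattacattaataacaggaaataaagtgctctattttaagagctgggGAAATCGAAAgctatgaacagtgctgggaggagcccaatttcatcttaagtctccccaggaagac
Mndal: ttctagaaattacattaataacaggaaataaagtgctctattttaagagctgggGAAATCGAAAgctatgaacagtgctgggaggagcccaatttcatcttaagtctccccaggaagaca
Ifi207: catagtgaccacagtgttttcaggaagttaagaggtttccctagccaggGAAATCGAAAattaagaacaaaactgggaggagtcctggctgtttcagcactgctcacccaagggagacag
Ifi211: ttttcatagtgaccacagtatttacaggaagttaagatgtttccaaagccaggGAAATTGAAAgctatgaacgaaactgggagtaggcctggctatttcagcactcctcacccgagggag
The windows of Ifi203 and Mndal, shifted by 1 base, were identical over all 119 compared bases, and those of Ifi207 and Ifi211 over 101 of 116 bases (87.07%). The letters GAAATCGAAA also stood in the promoters of the relatives Ifi206, Ifi208, Ifi213 and Ifi214. A match describes the sequence and is not evidence of binding.

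Expression of the Ly6 members in bulk was led by Ly6e, which takes part in the entry of several viruses into cells. Levels are given in CPM, the gene's share of a library's counts after scaling by the trimmed mean of M-values. With neonatal fibroblasts Ly6e stood at 105 and 83.0 CPM, and with adult fibroblasts at 223 and 215 CPM. The groups did not overlap and were 1.22 ± 0.11 (SE) apart on the log2 scale. The log2 fold change of Ly6a was 3.29 ± 0.14, with 4.35 and 5.29 CPM beside neonatal fibroblasts and 47.9 CPM in each library with adult ones. Ly6c1, which marks monocytes and endothelial cells, was near the lower limit of the data with 8 and 11 counts in imCM-NF and 28 and 13 in imCM-AF. These correspond to 0.892, 0.909, 2.56 and 1.09 CPM. The higher imCM-AF level came mostly from 1 library. The log2 fold change of 0.99 ± 0.45 was past the fold threshold of 0.58, but the adjusted p was not under 0.05. Ly6c1 passed the filter on low values only through the imCM-AF libraries. Ly6c2, a marker of inflammatory monocytes, had 0, 0, 1 and 0 counts and was left out by the filter on low values. A count of 0 allows up to 0.323 CPM in the shallowest library.

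Among the Ifi200 members, Ifi207 differed the most (log2 fold change 3.33 ± 0.21, or 10.04-fold). It was at 1.89 and 1.98 CPM with neonatal fibroblasts and at 18.8 and 20.4 CPM with adult fibroblasts. Ifi204, known as a nuclear DNA sensor and regulator of differentiation, was at 16.1 and 8.67 CPM beside neonatal and at 44.6 and 37.6 CPM beside adult fibroblasts (1.77 ± 0.18). Ifi203 was at 7.02 and 4.21 CPM and at 16.2 and 20.9 CPM, respectively (1.76 ± 0.21). Mndal was at 2.90 and 2.97 CPM and at 10.7 and 11.6 CPM (1.92 ± 0.21). For each of the 4 genes both imCM-AF libraries stood above both imCM-NF libraries. Within imCM-NF, Ifi203, Ifi204 and Ly6e were higher in replicate 1 than in replicate 2, whereas Ifi207 and Mndal were nearly equal.

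Of the 8 members, 7 entered the test and 6 were past both thresholds (adjusted p under 0.05 and absolute log2 fold change over 0.58), all higher in imCM-AF. Of all 14041 genes tested, 11.1% were past them in either direction, 6.15% higher and 4.99% lower. All 7 tested members had both imCM-AF libraries above both imCM-NF libraries, as had 32.1% of all tested genes. For Ly6c1 this order was fixed, since it passed the filter on low values only through the imCM-AF libraries. The members were chosen from this contrast, so nothing is read from these counts. By log2 fold change Ifi207 ranked 19 and Ly6a 20 of 14041, followed by Mndal at 82, Ifi204 at 101, Ifi203 at 104, Ly6e at 285 and Ly6c1 at 447. In levels per kilobase of exon the order differed. The comparison between genes is approximate, since counts were made over RefSeq genes and lengths are merged GENCODE exons. Reads from stretches shared with paralogs could also be lost. The imCM-AF means were 57.9 CPM per kb for Ly6e, 39.8 for Ly6a, 11.6 for Ifi204, 5.73 for Ifi207, 3.07 for Mndal, 2.76 for Ifi203 and 1.09 for Ly6c1. In imCM-NF they were 24.9 for Ly6e, 3.997 for Ly6a, 3.47 for Ifi204, 0.838 for Ifi203, 0.809 for Mndal, 0.567 for Ifi207 and 0.537 for Ly6c1. Ifi207 thus stood beside Ly6c1 at the lower end with neonatal fibroblasts, and above Mndal and Ifi203 with adult fibroblasts.

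**Figure D1:**
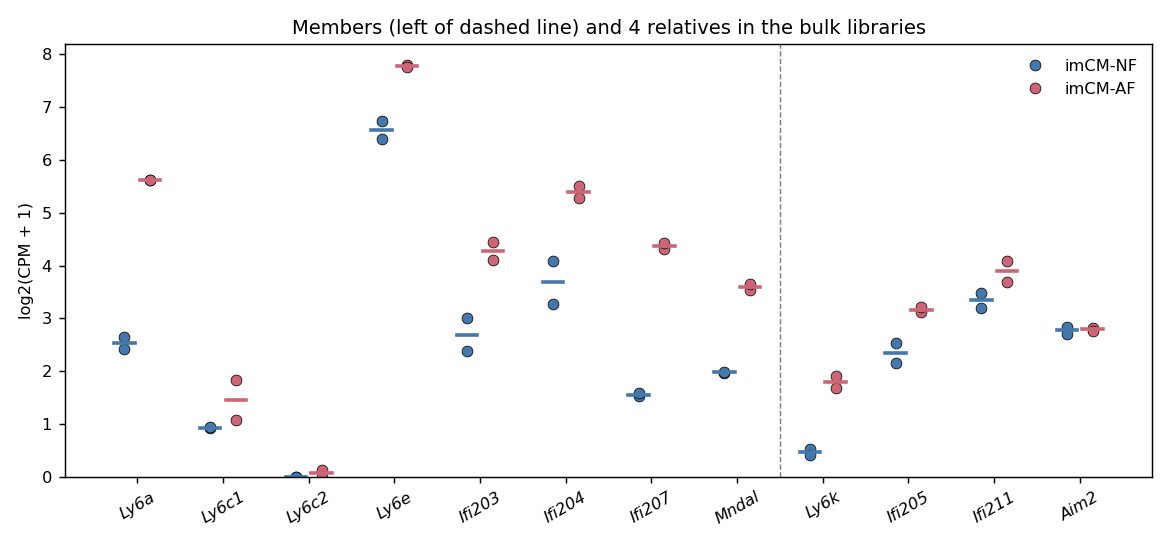
Level of the 8 members and 4 of their relatives in each bulk library, as log2(CPM + 1), with imCM-NF in blue and imCM-AF in red; points are libraries and lines are group means. Both imCM-AF points lie above both imCM-NF points for 7 members, whereas those of Aim2 lie within the imCM-NF range. For Ly6c1 this order was fixed by the filter on low values.

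The lists of genes and markers below were also chosen with earlier results of these data known, so their counts are a description. Of all 14041 tested genes 6.15% were called higher and 4.99% lower. The paralogs of the members did not all differ alike. Of 29 Ly6 relatives 5 were expressed highly enough to be tested and 1 was called. This was Ly6k, a sperm-associated Ly6 gene, at 0.446 and 0.330 CPM with neonatal and 2.74 and 2.18 CPM with adult fibroblasts (log2 fold change 2.65 ± 0.45). It passed the filter on low values only through the imCM-AF libraries, so that it had to differ, and it was not tested when either of these was left out. Lynx1, a modulator of nicotinic receptors, was slightly higher in imCM-AF (0.38 ± 0.11, adjusted p = 0.014 in edgeR's quasi-likelihood test), and Plaur, the urokinase receptor, slightly lower (-0.34 ± 0.11, adjusted p = 0.033), both under the fold threshold. Lypd1 (0.05 ± 0.13) and the complement regulator Cd59a (-0.24 ± 0.12) did not pass the test. The median log2 fold change of the 5 was 0.05, beside 0.0011 over all genes.

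Of 13 Ifi200 relatives 3 were tested and 2 were called, both higher in imCM-AF, as were 6.15% of all tested genes. Ifi205 was at 4.79 and 3.47 CPM with neonatal and 7.67 and 8.23 CPM with adult fibroblasts (0.97 ± 0.22, edgeR adjusted p = 0.0041). Ifi211 was at 10.1 and 8.18 CPM and at 15.97 and 11.9 CPM (0.62 ± 0.18, edgeR adjusted p = 0.020). Its promoter window resembles that of Ifi207, whose fold change was larger. The call of Ifi211 was lost in DESeq2 and without imCM-AF replicate 1, and neither relative was called without imCM-NF replicate 2. Aim2, the DNA sensor that forms an inflammasome, hardly differed, with 6.13 and 5.53 CPM beside neonatal and 6.02 and 5.80 CPM beside adult fibroblasts (0.03 ± 0.21, edgeR adjusted p = 0.94).

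Of the genes around DNA sensing and the inflammasome 13 of 14 were tested. In this list 2 genes were called, both higher in imCM-AF, as were 6.15% of all tested genes. They were Casp1, the inflammasome protease (2.26 ± 0.56, at 0.223 and 0.248 against 1.10 and 1.26 CPM), and Zbp1, a sensor of Z-form nucleic acids (1.44 ± 0.16, edgeR adjusted p = 8.2e-06). Sting1, which relays signals of cytosolic DNA, was lower in imCM-AF at 22.2 and 20.7 CPM against 32.9 and 31.1 CPM (-0.58 ± 0.11, edgeR adjusted p = 0.0014), just short of the fold threshold. Sting1 was called lower without imCM-AF replicate 1 (-0.62), without imCM-NF replicate 2 (-0.61) and without the filter on low values (-0.59). Casp1 passed that filter only through the imCM-AF libraries, so that it had to differ, and its call was lost in DESeq2 and without imCM-NF replicate 2. The median log2 fold change of the list was 0.04. None of the 8 interferon ligand genes passed the filter on low values, and their summed level was between 0.413 and 0.913 CPM in all 4 libraries.

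Of 16 genes of interferon signalling 5 were called, all higher in imCM-AF, as were 6.15% of all tested genes. The largest changes were those of the transcription factor Irf7 (1.81 ± 0.16), the feedback inhibitor Usp18 (1.59 ± 0.19) and Stat2 (1.03 ± 0.13), with edgeR adjusted p = 5.3e-07, 1.7e-05 and 2.5e-05. Of the receptor genes, Ifnar1 (-0.33 ± 0.10, edgeR adjusted p = 0.016) and Ifngr1 (-0.46 ± 0.11, edgeR adjusted p = 0.0044) were slightly lower in imCM-AF but under the fold threshold, and Ifnar2 and Ifngr2 did not pass the test. Of 33 interferon response genes 29 were called, all higher, with a median log2 fold change of 1.18 over the list. Both interferon lists were chosen with earlier results of these data known, so these counts are a description. Oas1a (2.79 ± 0.18), Oas2 (2.76 ± 0.17) and Ifi44 (2.24 ± 0.18) changed the most. Ly6a and Ifi207 lay above all 33 of them, whereas Ly6e, at 1.22, lay close to the median of the list. With each library left out in turn, between 23 and 31 of the list were called.

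**Figure D2:**
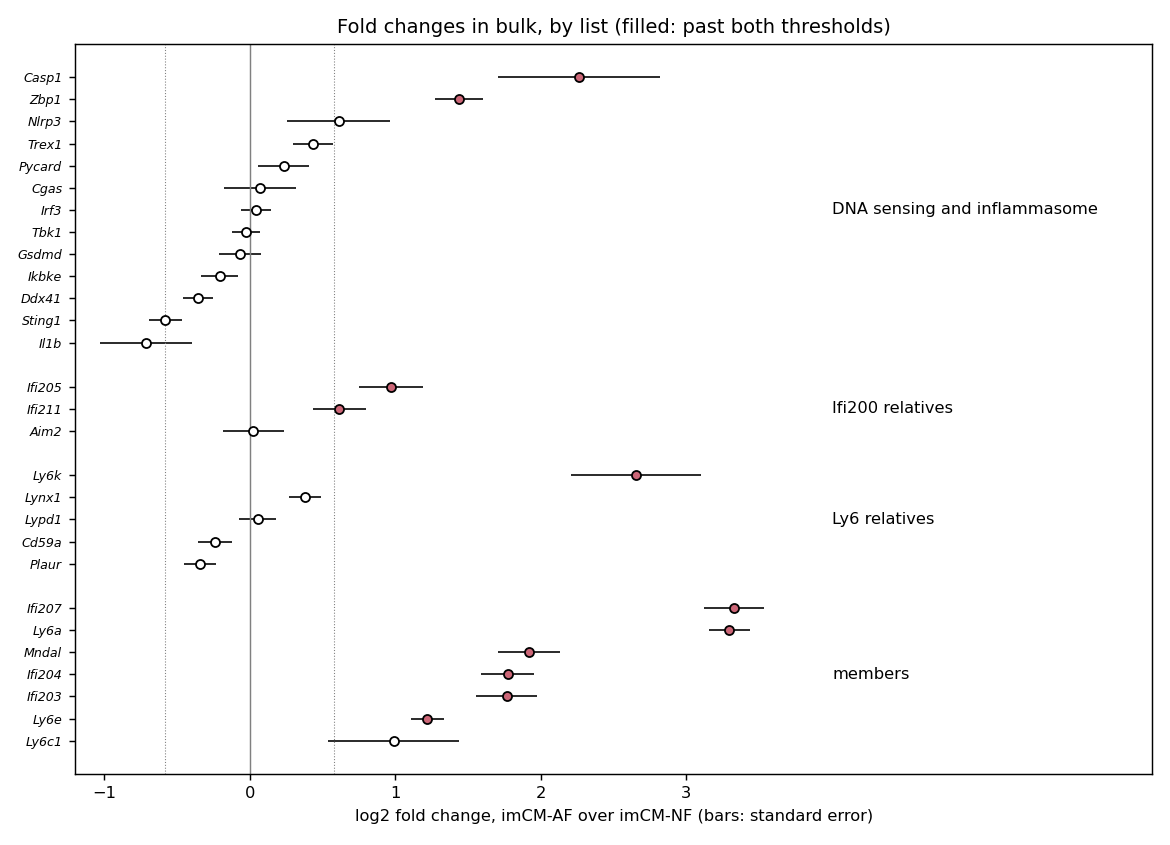
Log2 fold change of imCM-AF over imCM-NF with its standard error for the tested members, their relatives and the genes of DNA sensing and the inflammasome; filled points are past both thresholds, which the dotted lines mark for the fold change. Ifi207 at 3.33 and Ly6a at 3.29 lie to the right of all other genes shown.

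Cardiomyocyte markers summed to between 32192 and 45870 CPM in the bulk libraries, with 2 of 10 higher in imCM-AF. Transcripts of other cell types were present too. Endothelial markers were lower in imCM-AF for 5 of 10 genes, with a summed level of 674 and 641 CPM there against 993 and 1030 CPM. Fibroblast markers were lower for 5 of 10, with 19613 and 21743 CPM against 14580 and 11714 CPM. Macrophage markers were lower for 2 of 9 tested, both of which passed the filter only through imCM-NF, among them C1qa at 0 counts in imCM-AF replicate 1, with summed levels of 72.3 and 87.4 against 63.2 and 70.4 CPM. Of 7 lymphocyte markers 1 was tested and not called, and of 6 monocyte and neutrophil markers 1 was tested and called higher, Plac8 (0.95 ± 0.12). Of 8 smooth muscle and pericyte markers 1 was higher and 2 were lower, and of 6 tested epicardial markers 1 was lower. In bulk samples fewer cells of a type and less RNA per cell cannot be told apart. The part of these cell types in the members' bulk levels was not tested in bulk.

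The single-cell data gave the members' levels by Type and by class of cell. UMIs were summed over the wells of a Type and divided by the total, as CPM. Intervals are exact 95% Poisson intervals of the sums. They cover counting error only, and since a member's UMIs often sat in few wells they are too narrow for the spread between cells. With 1 library of each kind there was no test.

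Ly6a was at 29.97, 26.3 and 18.7 CPM in AFNCM1 to AFNCM3 and at 0.253, 0.223 and 0.433 CPM in NFNCM1 to NFNCM3. It had 0 UMIs in NCM0_1 and NCM0_2, which together allow up to 0.515 CPM. In the fibroblasts library it was at 20.04 and 53.4 CPM in AF1 and AF2, 1.08 and 2.35 CPM in NF1 and NF2, 13.9 and 28.7 CPM in AF0_1 and AF0_2, and 3.71 and 2.63 CPM in NF0_1 and NF0_2. Every Type with AF in its name stood above every other Type. UMIs of Ly6a were found in 11.1% of AFNCM wells, with 6.40 UMIs on average in a well that had any, and in 0.574% of NFNCM wells. After thinning each well to 5000 UMIs the shares were 5.25% and 0.244%.

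Ly6e was the most widely found member. Its level was 107, 115 and 145 CPM in AFNCM1 to AFNCM3, 26.6, 22.3 and 13.6 CPM in NFNCM1 to NFNCM3, and 14.1 and 9.17 CPM in NCM0_1 and NCM0_2. It was 252 and 349 CPM in AF1 and AF2, 35.3 and 29.97 CPM in NF1 and NF2, 157 and 155 CPM in AF0_1 and AF0_2, and 25.3 and 38.9 CPM in NF0_1 and NF0_2. The lowest AF-named Type was thus above the highest of the others in both libraries. UMIs of Ly6e were found in 50.5% of AFNCM wells and 11.1% of NFNCM wells, and in 31.1% and 5.61% after thinning.

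Ly6c1 was concentrated in AFNCM2, at 23.9 CPM, against 3.64 and 3.91 CPM in AFNCM1 and AFNCM3. Of its 135 UMIs in AFNCM2, 42 came from 1 well. It was at 0.253, 0.223 and 0.649 CPM in the NFNCM Types and at 0 and 0.287 CPM in the NCM0 Types. In the fibroblasts library it did not exceed 2.37 CPM (AF1), with 1.45 CPM in AF2, 0.633 and 1.15 CPM in the AF0 Types, 0.270 and 0 CPM in the NF Types and 0 and 0.659 CPM in the NF0 Types. Ly6c2 had 8 UMIs in all AFNCM wells, 7 of them in AFNCM2 (1.24 CPM), and at most 2 UMIs in any other group of wells. Its groups cannot be ordered at this depth.

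Ifi204 was at 13.2, 26.3 and 28.2 CPM in AFNCM1 to AFNCM3, 0, 0.223 and 1.08 CPM in NFNCM1 to NFNCM3, and 0.429 and 1.43 CPM in the NCM0 Types. In fibroblasts it was at 46.3 and 85.6 CPM in the AF Types, 1.08 and 8.81 CPM in the NF Types, 19.0 and 15.5 CPM in the AF0 Types and 6.55 and 2.90 CPM in the NF0 Types. Mndal followed the same order with 15.96, 23.6 and 26.0 CPM in the AFNCM Types, 1.52, 0.446 and 1.73 CPM in the NFNCM Types, and 0.429 and 1.15 CPM in the NCM0 Types. Its levels were 32.8 and 51.5 CPM in AF1 and AF2, 0 and 5.88 CPM in NF1 and NF2, 29.7 and 12.6 CPM in the AF0 Types, and 1.09 and 0.922 CPM in the NF0 Types. For both genes every AF-named Type was above every NF- or NCM0-named Type of the same library.

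Ifi203 was at 17.6, 10.998 and 10.2 CPM in the AFNCM Types and at 0, 0 and 3.90 CPM in the NFNCM Types, where 16 of the 18 UMIs of NFNCM3 came from 1 well. Likewise all 10 UMIs of NCM0_1 (4.29 CPM) came from 1 well, and NCM0_2 had 0. In fibroblasts Ifi203 was at 40.1 and 61.1 CPM in AF1 and AF2 and at 0 and 4.11 CPM in NF1 and NF2. It was much lower in AF0_1 (13.6 CPM) and AF0_2 (1.34 CPM), which differed from each other more than for any other member with at least 20 UMIs, and at 0 and 0.395 CPM in the NF0 Types.

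Ifi207 was at 7.28, 5.68 and 10.2 CPM in the AFNCM Types, 0.506, 1.11 and 0.216 CPM in the NFNCM Types, and 1.71 and 2.01 CPM in the NCM0 Types. In fibroblasts it was at 10.8 and 18.6 CPM in the AF Types, 2.70 and 9.40 CPM in the NF Types, 16.1 and 5.35 CPM in the AF0 Types, and 4.15 and 15.2 CPM in the NF0 Types. The AF0 and NF0 Types overlapped for this gene. In NF0_2, 91 of 115 UMIs came from 1 well, and in NF2, 26 of 32.

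**Figure D3:**
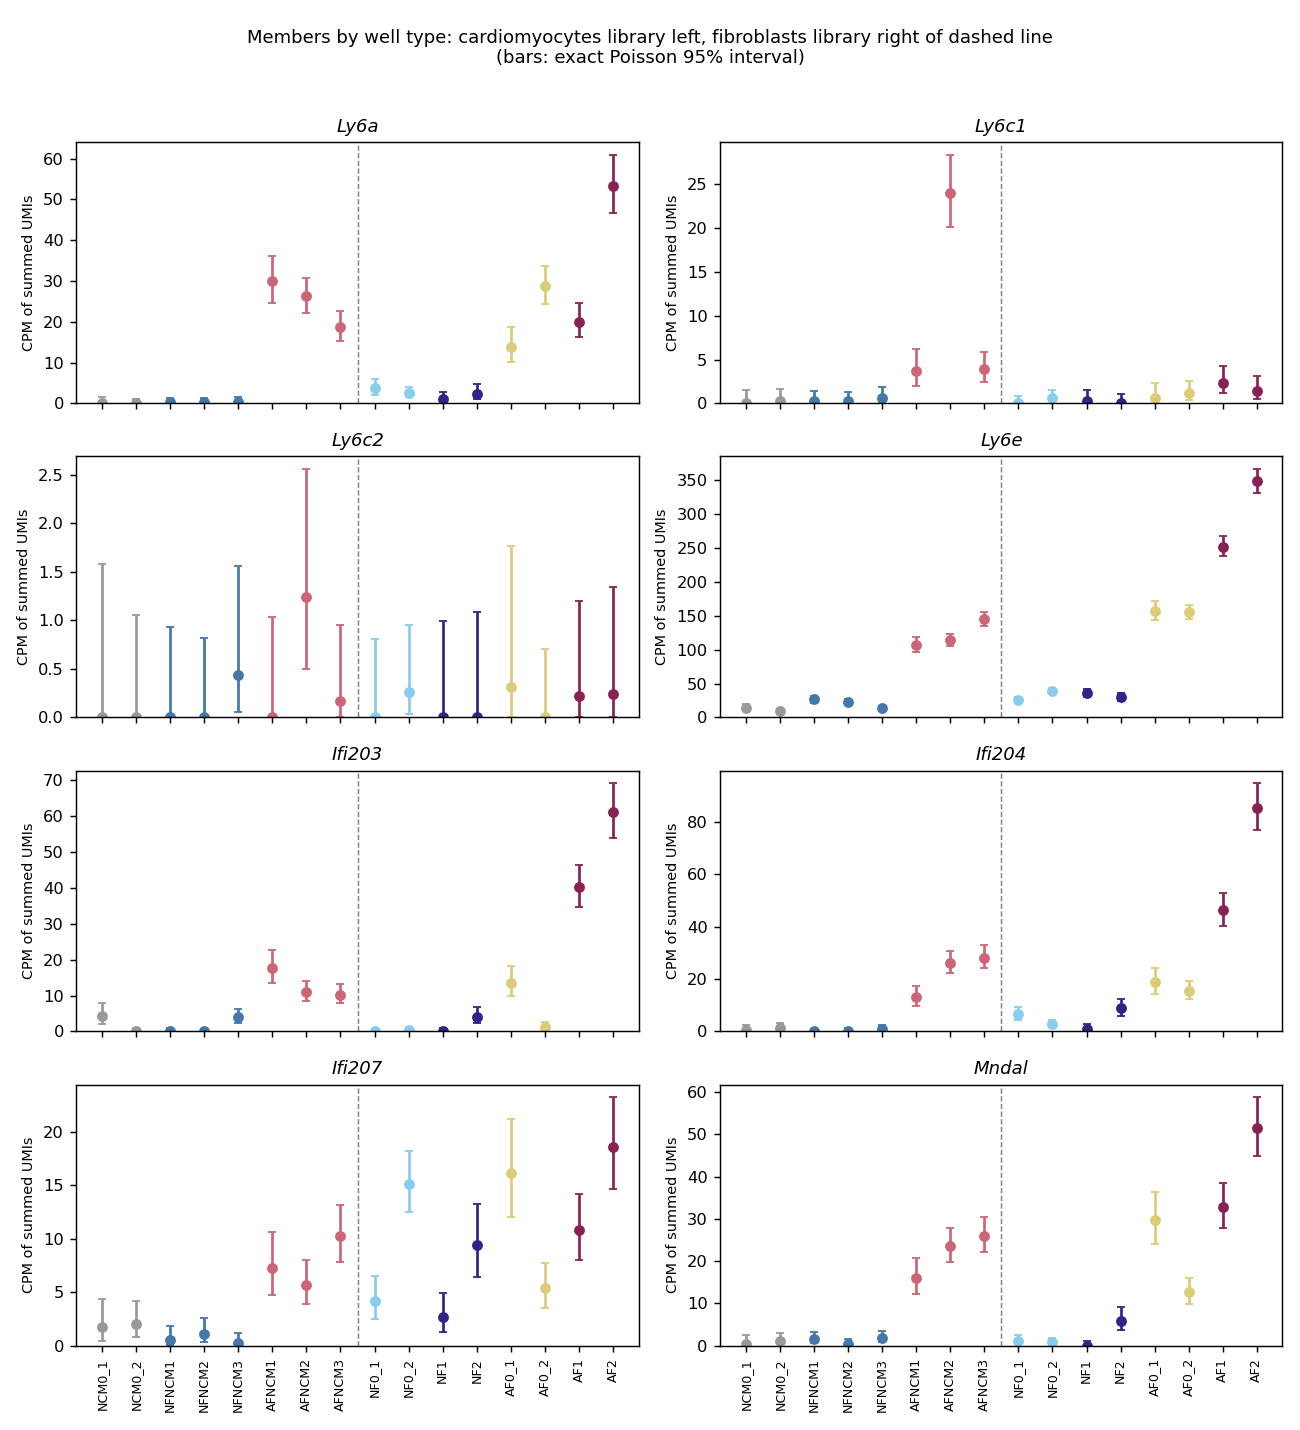
CPM of summed UMIs of each member in the 16 Types, with exact Poisson 95% intervals; Types of the cardiomyocytes library lie left of the dashed line. Types with AF in their name are above the others in each library for Ly6a, Ly6e, Ifi204 and Mndal, whereas Ifi203 is low in AF0_2 at 1.34 CPM and Ifi207 is also high in NF0_2 at 15.2 CPM.

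Taken over all wells of a name, the ratio of AFNCM to NFNCM was 79.0 (30.6 to 291) for Ly6a, 52.1 (23.7 to 143) for Ifi204, 29.6 (12.4 to 92.4) for Ly6c1 and 18.6 (11.3 to 32.8) for Mndal. It was 12.8 (6.27 to 30.3) for Ifi207, 8.90 (5.48 to 15.3) for Ifi203 and 6.07 (5.34 to 6.92) for Ly6e. The 7 members with at least 20 UMIs all had their lowest AFNCM Type above their highest NFNCM Type, as had 13.4% of all 15288 genes with that many UMIs. With a further limit of over 4-fold these were 7 of 7 members and 3.11% of all genes. Against the NCM0 Types the AFNCM Types were likewise higher for 7 of 7 members (20.5% of all genes), also with over 4-fold (5.14%). Of the 7, all but Ly6e had under 20 UMIs in NFNCM and in NCM0, so they passed that limit only through AFNCM. The members were chosen with results of these data known, so nothing is read from these counts. When levels were averaged over wells rather than summed, the AFNCM and NFNCM Types overlapped for Ifi207, at 4.42 and 4.94 CPM for the nearest pair. Over all wells fibroblast markers summed to 3283 CPM in AFNCM and 1792 in NFNCM, and endothelial markers to 344 and 101 CPM, both in the opposite direction to the bulk libraries. Macrophage markers summed to 470 and 664 CPM. Their part in the ratios over all wells was not tested.

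Between the fibroblast wells named AF and NF the ratio was 25.4 (14.98 to 46.9) for Ifi203, 21.2 (12.0 to 41.5) for Ly6a, 14.8 (9.44 to 24.5) for Mndal, 13.6 (9.59 to 19.8) for Ifi204, 9.08 (7.94 to 10.4) for Ly6e and 2.45 (1.72 to 3.56) for Ifi207. All 6 of these members had both AF Types above both NF Types, as had 27.4% of all genes with at least 20 UMIs, and 5 of 6, without Ifi207, also differed by over 4-fold (6.22% of all genes). For AF0 against NF0 this was so for 5 of 6, Ifi207 being the exception, against 27.8% of all genes, and with over 4-fold for 4 of 6 against 4.62%. Here the ratio was 24.2 (7.81 to 121) for Ifi203, 19.3 (10.8 to 38.2) for Mndal, 7.60 (5.33 to 11.1) for Ly6a, 4.61 (4.12 to 5.17) for Ly6e, 3.93 (2.84 to 5.51) for Ifi204 and 0.855 (0.639 to 1.14) for Ifi207. Against NF, Ly6a and Ifi203 passed the limit of 20 UMIs only through AF. Against NF0, Ifi203 and Mndal passed it only through AF0. As the members were chosen with results of these data known, nothing is read from these counts. Marker levels differed between these wells too. Cardiomyocyte markers summed to 667 CPM in AF, 3742 in NF, 263 in AF0 and 5222 in NF0, macrophage markers to 60.2, 238, 93.2 and 668 CPM, and fibroblast markers to 10601, 4778, 5417 and 6927 CPM. Their part in the ratios was not tested.

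AF wells also differed from AF0 wells. The ratio of AF to AF0 was 8.39 (6.26 to 11.5) for Ifi203, 3.86 (3.20 to 4.67) for Ifi204, 2.18 (1.81 to 2.64) for Mndal and 1.91 (1.79 to 2.04) for Ly6e, and in these 4 genes and Ly6c1 both AF Types were above both AF0 Types. This was so for 5 of 7 members with at least 20 UMIs and for 26.4% of all genes, and with over 4-fold only for Ifi203 (4.24% of all genes). Nothing is read from these counts either, the members being chosen with results of these data known. Of the 170 AF0 wells 164 were in the unnamed cluster 5, led by Upk1b, Scel and Asb5. Epicardial markers summed to 279.1 CPM in AF0 and 17.5 CPM in AF, and fibroblast markers to 5417 and 10601 CPM, and their part in the ratios was not tested. For Ly6a (1.55, 1.29 to 1.86) and Ifi207 (1.54, 1.15 to 2.06) the Types overlapped. Between NF and NF0 wells the Types of Ly6e overlapped, with a ratio of 0.97 (0.822 to 1.14). Both NF Types of Ly6a were below both NF0 Types, with a ratio of 0.555 (0.263 to 1.09). For the Ifi200 members the Types overlapped, with ratios of 7.98 (2.23 to 43.3) for Ifi203, 2.85 (1.33 to 6.40) for Mndal, 1.12 (0.704 to 1.76) for Ifi204 and 0.536 (0.370 to 0.764) for Ifi207.

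To see which cells carried the members, wells were clustered without the members and without the interferon gene lists, and 9 of 16 clusters could be named from marker genes. In AFNCM these gave 183 cardiomyocyte-like, 95 fibroblast-like, 54 endothelial-like and 8 macrophage-like wells, and 175 wells stayed unnamed. In NFNCM 308 of 523 wells were cardiomyocyte-like, 13 endothelial-like, 8 macrophage-like and 5 fibroblast-like, and 189 stayed unnamed. The count of fibroblast-like wells depends on the clustering. The 95 fibroblast-like AFNCM wells were in cluster 3, with 156 AF wells, while 41 unnamed NFNCM wells were in cluster 2, with Postn among its leading genes. In a coarser clustering (resolution 0.5) a cluster led by Postn was called fibroblast-like, with 76 NFNCM and 2 AFNCM wells. The cardiomyocyte-like wells of AFNCM were mostly in cluster 7 (122 wells), led by Sprr2a1, Sprr2b and Sprr2a2 with Iigp1, Igtp and Ifit1 among its leading genes, while those of NFNCM were mostly in cluster 1 (280 wells), led by Cox8b and Cox6a2. Nearly all AF0 wells (168 of 170) and most NF wells (215 of 256) were unnamed, so classes were not compared there. In the coarser clustering the cluster led by Postn also held 182 NF and 225 NF0 wells, while 167 AF0 wells were in an unnamed cluster.

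Ly6a in AFNCM sat mostly outside cardiomyocyte-like wells. Of its 365 UMIs there, 44.9% came from endothelial-like and 42.5% from fibroblast-like wells, and 2.74% from cardiomyocyte-like wells, which held 46.1% of all UMIs. Its level was 90.3 CPM (77.0 to 105) in endothelial-like wells, 52.7 (44.7 to 61.6) in fibroblast-like wells and 1.44 (0.689 to 2.64) in cardiomyocyte-like wells. UMIs of Ly6a were found in 33.3%, 21.1% and 2.73% of these wells. Cardiomyocyte-like wells of NFNCM had 0 UMIs, so their AFNCM level was at least 3.85-fold higher, set against 3 counts over all NFNCM wells of the class. In fibroblast-like AF wells Ly6a was at 36.6 CPM.

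Ly6c1 was highest in endothelial-like wells. These gave 60.8% of its 171 AFNCM UMIs, at 57.2 CPM (46.8 to 69.4), against 2.04 CPM (0.748 to 4.44) in fibroblast-like and 0.431 CPM (0.0889 to 1.26) in cardiomyocyte-like wells. The unnamed wells held 58 of the UMIs, at 19.2 CPM (14.6 to 24.8), 35 of them in 1 well. With wells assigned by the larger marker sum, the cardiomyocyte-like level was 10.5 CPM. Among endothelial-like AFNCM wells it was found only in cluster 13, led by Fabp4, Pcdh17, Apln and Gpihbp1, where it reached 78.3 CPM in 36 AFNCM wells, whereas the 18 endothelial-like AFNCM wells of cluster 10, led by Ctla2a and Cdh5, had 0 UMIs. Ly6a split in the same way, with 123 CPM in cluster 13 and 0 in cluster 10. Ly6e did not, with 220 CPM and 182 CPM.

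Ly6e was found in all classes of AFNCM wells, at 242 CPM (224 to 260) in fibroblast-like, 210 (190 to 232) in endothelial-like and 39.2 (34.7 to 44.2) in cardiomyocyte-like wells. Cardiomyocyte-like wells were at 3.98 CPM in NFNCM and 9.92 CPM in NCM0. The AFNCM level was thus 9.85-fold (6.82 to 14.7) that of NFNCM and 3.95-fold (2.86 to 5.59) that of NCM0. In cluster 1 alone, the only large cluster shared by both, it was 21.9 CPM (12.5 to 35.6) in 38 AFNCM wells and 2.37 CPM (1.38 to 3.79) in 280 NFNCM wells. UMIs were found in 32.2% of the cardiomyocyte-like AFNCM wells, and in 11.9% after thinning.

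The Ifi200 members were higher in fibroblast-like and endothelial-like than in cardiomyocyte-like AFNCM wells. Ifi204 was at 60.8 CPM (52.2 to 70.4) in fibroblast-like, 38.5 (30.03 to 48.7) in endothelial-like and 3.16 (1.98 to 4.79) in cardiomyocyte-like wells. Mndal was highest in endothelial-like wells at 58.3 CPM (47.8 to 70.6), with 30.9 (24.9 to 38.0) in fibroblast-like and 6.90 (5.09 to 9.15) in cardiomyocyte-like wells. For Ifi203 the levels were 28.9 CPM (23.1 to 35.7) in fibroblast-like, 20.9 (14.8 to 28.7) in endothelial-like and 3.88 (2.56 to 5.65) in cardiomyocyte-like wells, and for Ifi207 they were 10.2 (6.88 to 14.5), 6.05 (3.02 to 10.8) and 3.02 CPM (1.87 to 4.61).

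All 4 Ifi200 members were at or near 0 in cardiomyocyte-like NFNCM wells. Ifi203 and Ifi204 had 0 UMIs there, so that AFNCM was at least 10.4-fold and at least 8.47-fold higher. Mndal had 48 UMIs in AFNCM and 2 in NFNCM, a ratio of 27.7 (7.27 to 235). Ifi207 had 21 and 2, a ratio of 12.1 (2.96 to 107), but its 21 UMIs came from 2 of 183 wells. UMIs of Ifi203, Ifi204 and Mndal were found in 4.92%, 6.01% and 6.01% of the cardiomyocyte-like AFNCM wells. When wells were instead assigned to the class with the larger marker sum, the cardiomyocyte-like AFNCM level was 11.9 CPM for Ly6a, 16.7 CPM for Mndal and 85.8 CPM for Ly6e. It was 12.3 CPM for Ifi204, 7.84 CPM for Ifi203 and 5.14 CPM for Ifi207. In NFNCM the level was then 11.9 CPM for Ly6e, 1.58 CPM for Ifi203 and 1.02 CPM for Mndal. The folds given above for cardiomyocyte-like wells are those of the classes by cluster.

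**Figure D4:**
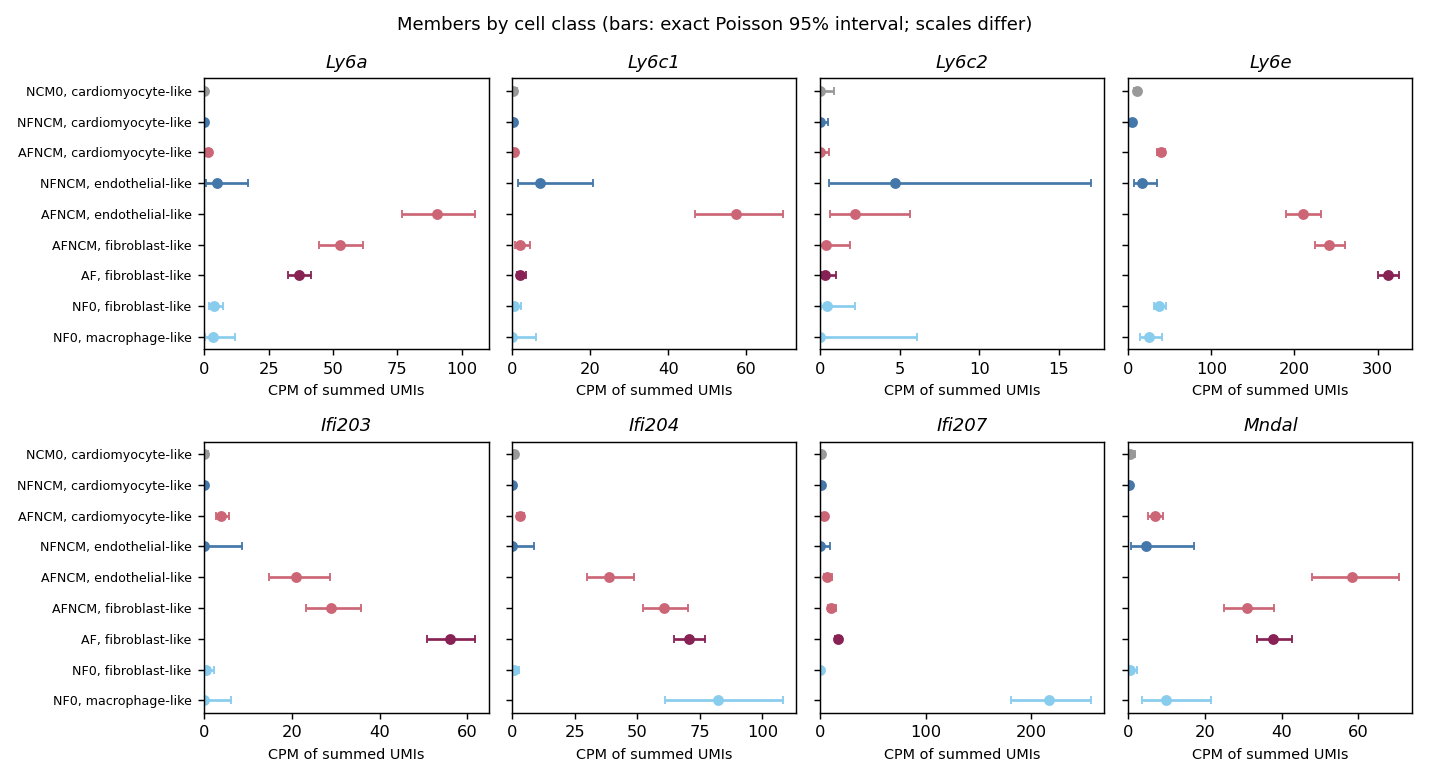
CPM of summed UMIs of each member by class of well, with exact Poisson 95% intervals; horizontal scales differ between panels. Ly6a and Ly6c1 are highest in endothelial-like AFNCM wells at 90.3 and 57.2 CPM, and Ifi207 in macrophage-like NF0 wells.

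Ifi207 was carried by macrophage-like wells in some groups. In NF0, 11 macrophage-like wells held 132 of its 134 UMIs, at 217 CPM (181 to 257), and 91 of these came from 1 well. They also held 50 of the 52 NF0 UMIs of Ifi204, at 82.1 CPM (60.9 to 108), but 2 of 37 for Ly6a. Without macrophage-like wells Ifi207 was at 0.173 CPM (0.0209 to 0.625) in NF0, 1.58 (0.789 to 2.83) in NF, 7.98 (6.17 to 10.2) in AF0 and 14.5 (12.1 to 17.3) in AF. The overlap of AF0 and NF0 Types seen above for this gene thus came with those wells. In AFNCM, 8 macrophage-like wells held 30.5% of the Ifi207 UMIs, and without them its level was 5.56 CPM (4.43 to 6.91) against 0.235 CPM (0.0484 to 0.686) in NFNCM.

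Fibroblast markers were also found in cardiomyocyte-like wells, where the summed level of the 10 genes was 687 CPM in AFNCM, 166 CPM in NFNCM and 684 CPM in NCM0. All 10 fibroblast markers were found in each. The ratio of a member to the fibroblast markers can be set beside that in fibroblast-like AFNCM wells. Per 1000 fibroblast-marker UMIs, Ly6a had 2.09 UMIs (1.003 to 3.85) in cardiomyocyte-like and 5.56 (4.72 to 6.51) in fibroblast-like wells, and Ifi204 had 4.60 (2.88 to 6.98) and 6.42 (5.51 to 7.44). For these genes the cardiomyocyte-like ratio did not exceed that of fibroblast-like wells. The markers were about as high in cardiomyocyte-like NCM0 wells as in AFNCM ones, so they are not particular to AF-named wells. The ratio therefore cannot place the members' UMIs, and their source in cardiomyocyte-like wells was not tested.

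The other members had more UMIs per fibroblast marker in cardiomyocyte-like wells. Ly6e had 57.1 (50.4 to 64.6) there against 25.6 (23.7 to 27.5), Mndal 10.05 (7.40 to 13.3) against 3.27 (2.63 to 4.01), Ifi207 4.40 (2.72 to 6.73) against 1.08 (0.726 to 1.54) and Ifi203 5.65 (3.72 to 8.23) against 3.05 (2.44 to 3.77), the intervals of the last just overlapping. In endothelial-like wells Ly6e had 54.1 (48.7 to 60.0) and Mndal 15.01 (12.3 to 18.2). Cardiomyocyte-like AFNCM wells also held endothelial markers at 38.5 CPM and macrophage markers at 55.1 CPM, and the part of these cells in the members' levels was not tested.

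**Figure D5:**
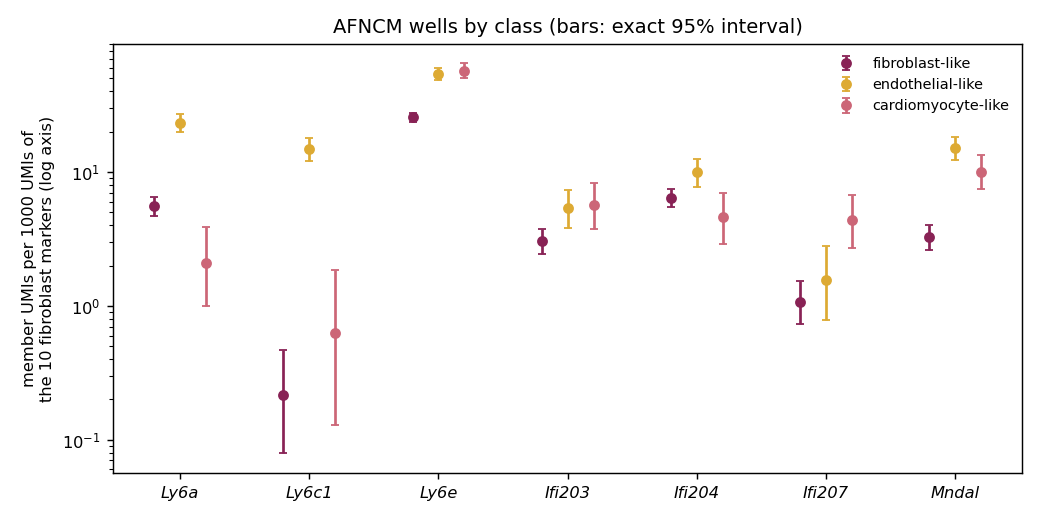
UMIs of each member per 1000 UMIs of the 10 fibroblast markers in AFNCM wells, by class, with exact 95% intervals on a log axis. The cardiomyocyte-like value lies above the fibroblast-like one for Ly6e, Mndal and Ifi207 and below it for Ly6a, with overlapping intervals for Ly6c1, Ifi203 and Ifi204.

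Several members were found together in part of the wells, and no share expected from the single members was computed. In AFNCM at least 3 of the 8 members were found in 38.9% of endothelial-like, 29.5% of fibroblast-like and 2.19% of cardiomyocyte-like wells, and up to 7 in a well. In fibroblast-like AF wells the share was 42.0%. It was 0% in cardiomyocyte-like wells of NFNCM and NCM0, and over all wells it was 13.8% in AFNCM and 0.382% in NFNCM. No member at all was found in 38.6% of AFNCM, 86.0% of NFNCM, 16.4% of AF and 74.2% of NF wells. These shares depend on the depth of a well, and the fibroblasts library was the deeper.

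The relatives did not all follow the same split of wells. The 25 Ly6 relatives in the single-cell tables summed to 484 CPM in AFNCM, 530 in NFNCM and 417 in NCM0, whereas the 10 Ifi200 relatives summed to 87.6, 8.42 and 4.29 CPM. Ifi205 was at 50.4 CPM in AFNCM, 2.37 in NFNCM, 135 in AF and 8.58 in NF, and Ifi211 at 24.1, 2.07, 71.1 and 10.96 CPM. Ly6k was at 70.2 CPM in AF and 57.4 in AF0 but at 3.45 in AFNCM. Irf7 was at 39.4 CPM in AFNCM, 1.30 in NFNCM, 50.01 in AF and 2.67 in NF. Sting1, lower in imCM-AF in bulk, was at 12.6 CPM in AFNCM against 3.60 in NFNCM. Aim2 was at 2.39 CPM in AFNCM and 3.22 in NFNCM. The interferon response list summed to 3278 CPM in AFNCM, 768 in NFNCM, 531 in NCM0, 5133 in AF and 1199 in NF, while the 6 interferon ligand genes in the single-cell tables, of 8 on the list, together did not exceed 0.281 CPM in any of the 7 groups of wells.

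Levels on the log2 scale were compared between genes over the 16 Types, to name for each member the genes most like it. Pearson's r for Ly6a was 0.96 with Ifi205, 0.95 with Ifit3 and 0.94 with Ly6e. For Ly6e it was 0.97 with Plac8, 0.96 with Lgals3bp and 0.95 with Bst2. For Ifi204 it was 0.95 with each of Serpinf1, Ifi205 and Lgals3bp, and for Mndal 0.95 with each of Mmp3, Lcn2 and Ifi205. For Ifi203 it was 0.87 with each of Hp, Xaf1 and Egr1. Ifi207 differed, its most similar genes being Lama4 (0.91), Col1a1 (0.87) and Pdgfrb (0.86), genes of the basement membrane, the collagen matrix and the mesenchymal growth factor receptor. Yet nearly all Ifi207 UMIs of NF0 sat in macrophage-like wells. The top well gave 91 of 115 in NF0_2 and 26 of 32 in NF2. Likeness over Types thus does not by itself place Ifi207 in the same cells as these genes. Ifi207 was also found in the fibroblast-like cluster 3, made mostly of AF and AFNCM wells. There it had 149 UMIs in 38 of 255 wells, at 14.6 CPM. Ly6c1 was nearest to Serpinb1a (0.85), Hist1h2ao (0.82) and Usp18 (0.82). Among the members, r was highest for Ly6a with Ly6e (0.94) and with Ifi204 (0.94) and lowest for Ly6c1 with Ifi207 (0.32). These values describe 16 points from 2 libraries that share depth and cell makeup within a library, over 6090 genes compared, and are given without a test.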

How the data were processed

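Bulk values were gene counts that the authors deposited after aligning reads to mm10 with Subread, keeping uniquely placed reads and counting over RefSeq genes without strand. Single-cell values were deposited UMI counts per well, made by the authors with STAR 2.5.2b (mm10) and counting with Subread 1.4.6-p1 over Ensembl genes; the report of wells gave the Type. The members and lists were chosen with earlier results of these data known. The named genes were the members, their family relatives and the fixed lists.

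Bulk counts were tested with edgeR 4.0.16 (R 4.3.3) by its quasi-likelihood test, with trimmed-mean scaling, genes over 1 CPM in at least 2 libraries, calls needing an adjusted p (Benjamini-Hochberg, over all tested genes) below 0.05 together with a log2 fold change beyond 0.58 either way. Groups came from the labels. DESeq2 1.42.0, limma 3.58.1 (voom), other scalings, no filter, a replicate block and leaving out libraries were alternatives. On simulated counts for 13872 genes edgeR recovered 192 of 200 genes changed by 1.5 on the log2 scale, with 3 false calls.

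Wells with at least 500 genes, more than 50% aligned reads and UMIs no further than 2 SD from the mean were kept, and 34 mitochondrial genes were left out. Doublets were not called. Clusters (scanpy 1.11.5; 2000 variable genes, 20 components, 15 neighbours, Leiden resolution 1) were made without the members and the interferon lists. A count of 0 was given a floor of 3 counts. Likeness used log2(CPM + 1) over 16 Types. A gene of the lists is not reported here.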

Additional observations from a re-analysis of the deposited data

How the results depend on the processing

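The 6 members called in bulk were also called in every alternative that kept all 4 libraries. As they were chosen from this contrast, this is a description only. Over all alternatives their log2 fold changes ranged from 3.27 to 3.40 for Ifi207, 3.18 to 3.47 for Ly6a and 1.86 to 1.99 for Mndal. They ranged from 1.36 to 2.24 for Ifi204, 1.41 to 2.14 for Ifi203 and 1.06 to 1.397 for Ly6e. Ly6c1 (0.84 to 1.04) could not be tested without either imCM-AF library. Leaving out a library leaves a group with 1 sample, which is then assumed to vary like the other group. Of all genes, 1564 were called, 1078 with DESeq2, and between 879 and 1929 with a library left out, the lowest being 879 (imCM-NF replicate 2 left out) and 988 (imCM-AF replicate 2 left out). Called Ly6 relatives ranged from 0 to 1 with a library left out, since Ly6k was not tested without an imCM-AF library. Called Ifi200 relatives were 1 with DESeq2, 5 without the filter and 0 to 2 with a library left out. Called genes of DNA sensing were 1 with DESeq2 and 1 to 2 with a library left out, Sting1 being called lower in 2 of these fits, of interferon signalling 5, and of interferon response 23 to 31. The cause of these differences was not tested.

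With the replicate number as a block 1430 genes were called, and 1668 with crossed pairs, which was chosen after seeing the data and under which Ly6c1 was called as well. Deviations of same-numbered libraries correlated at -0.13 over 14041 genes and 2 pairs, so the numbers are not shown to pair the libraries.

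Averaged over wells, 6 members kept AFNCM above NFNCM Types and 6 kept AF above NF Types, against 7 and 8 of the 8 by summed UMIs. By summed UMIs the same held for 13.4% and 27.4% of all genes with at least 20 UMIs. Both counts for AF include Ly6c2, with 1 UMI in each AF Type and 0 in the NF Types, which is too few to order them. The 8 also include Ly6c1, at 17 UMIs in AF and 1 in NF. Without the filters on aligned share and UMI total, AF rose from 35.8 to 58.9 CPM for Ly6a and from 1.94 to 4.58 CPM for Ly6c1. Without its top well, Ifi207 was at 3.55 CPM in NF0 (11.01 with it) and 2.26 CPM in NF (5.90 with it). Depth limits Ly6c2 in all data, and Ly6c1 in bulk.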
